A study of Mus with 12 samples.

Results

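The cytosolic ribosomal protein genes encode the proteins of the large (60S) and small (40S) subunits of the ribosome, the machine that translates every nuclear-encoded message. They were taken as the protein coding genes whose symbol is Rpl or Rps followed by a digit, or is Rpsa, Rplp0, Rplp1 or Rplp2, leaving out pseudogene names and the Rps6k kinases. Of the 25247 genes in the blood table, 86 met this rule: 51 named for the large subunit, 33 named for the small subunit, and 2 that carry a family-like name without being ribosome components (Rps19bp1 and Rps23rg1). A further 6 genes with family names were not annotated as protein coding and were left out. Of the 86 genes, 79 were expressed highly enough to be tested (46 large and 33 small subunit genes), which required an FPKM (fragments normalised to gene length and library size) reaching 1 in no fewer than 3 libraries. The 7 that were not tested were Rpl3l, Rpl39l, Rpl21, Rpl29, Rpl30, Rps19bp1 and Rps23rg1.

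The 12 libraries were made from the blood of female BALB/c mice, which were 6 weeks old at purchase, in 4 groups of 3 libraries. The study had 6 mice in each group, and which of them gave each library is not given in the sources used here. Each library was treated as 1 mouse. Solvent mice received the acetone and olive oil vehicle on the skin. DNCB mice were sensitised with 1% 2,4-dinitrochlorobenzene, a skin sensitiser used to provoke an atopic dermatitis-like disease, and were challenged with 0.5%. Mice of the scMSC and scivMSC groups received the same DNCB schedule and also human umbilical cord mesenchymal stem cells (MSC), 2000000 cells per dose, either in 100 µL under the skin (scMSC) or as 50 µL under the skin and 50 µL into the tail vein (scivMSC). The cells were therefore human cells in a mouse host, the 2 MSC groups differed from each other in route, and neither an injection without cells nor MSC without DNCB was among the groups analysed here.

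Each ribosome carries a single copy of most of these proteins, and the genes are usually expressed together. Their messages begin with a 5′ terminal oligopyrimidine tract, through which the mTOR pathway controls their translation as a group. In blood the messages are abundant in lymphocytes and in reticulocytes, which still translate globin, while mature neutrophils hold comparatively little RNA of this class. Heterozygous loss of several of these genes causes Diamond-Blackfan anaemia, a failure of red cell production.

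The libraries held between 52179764 and 65139421 deposited counts, and haemoglobin genes made up between 91.3% and 95.6% of the FPKM in each. Of 10 listed red cell markers, haemoglobin genes among them, 9 were in the table. None of these was at 0 in all libraries, as blood should show. Between 5843407 and 12858063 counts per library lay outside the haemoglobin genes. The summed FPKM of 22 T cell and B cell markers, all of them detected, lay between 148 and 326 in Solvent, 49.8 and 92.6 in DNCB, 65.1 and 91.0 in scMSC, and 18.0 and 41.7 in scivMSC. That of 10 neutrophil markers lay between 221 and 445 in Solvent, 6995 and 10978 in DNCB, 579 and 721 in scMSC, and 247 and 743 in scivMSC. In bulk blood, fewer cells of a type and less RNA per cell cannot be told apart. Solvent replicate 1 stood apart from the other libraries, holding the highest FPKM of 73 of the 79 tested ribosomal protein genes.

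Within the family, levels spanned more than the differences between groups. Per unit of length, 5 of the 79 tested genes averaged over 100 FPKM across the 12 libraries, 58 lay between 10 and 100, 15 between 1 and 10, and 1 (Rpl35a) below 1. The most abundant was Rplp1, which with Rplp0 and Rplp2 forms the acidic stalk that recruits the elongation factors. Its FPKM was 634, 477 and 493 in Solvent, 779, 670 and 531 in DNCB, 447, 409 and 400 in scMSC, and 337, 382 and 295 in scivMSC, so that all DNCB libraries lay above all MSC libraries while overlapping Solvent. Rpl41, a very short protein at the subunit interface, came next with 224, 307 and 271 in Solvent, 315, 301 and 275 in DNCB, 250, 560 and 332 in scMSC, and 241, 195 and 204 in scivMSC. The scMSC mean of Rpl41 rested largely on replicate 2. Rplp0, the stalk's base, had 219, 177 and 186 FPKM in Solvent, 321, 246 and 255 in DNCB, 223, 189 and 194 in scMSC, and 176, 204 and 146 in scivMSC. Rplp0 was thus highest in the 3 DNCB libraries, with no overlap with any other library.

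Rps29, a zinc-binding protein of the 40S head, differed less between the groups, with 227, 194 and 173 FPKM in Solvent, 190, 199 and 139 in DNCB, 166, 128 and 148 in scMSC, and 150, 145 and 126 in scivMSC. Rps15, which lies near the decoding site, followed the pattern of most of the family instead: 270, 177 and 173 in Solvent, 127, 128 and 89.9 in DNCB, 122, 65.3 and 78.0 in scMSC, and 67.5, 47.7 and 43.2 in scivMSC. Its Solvent libraries lay above all others and its scivMSC libraries reached only the lower end of scMSC. Rps3a1, Rpl19 and Rps16 had the same order of group means, with Solvent libraries up to 203, 143 and 147 FPKM and scivMSC libraries down to 35.1, 32.0 and 26.7 FPKM.

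**Figure D1:**
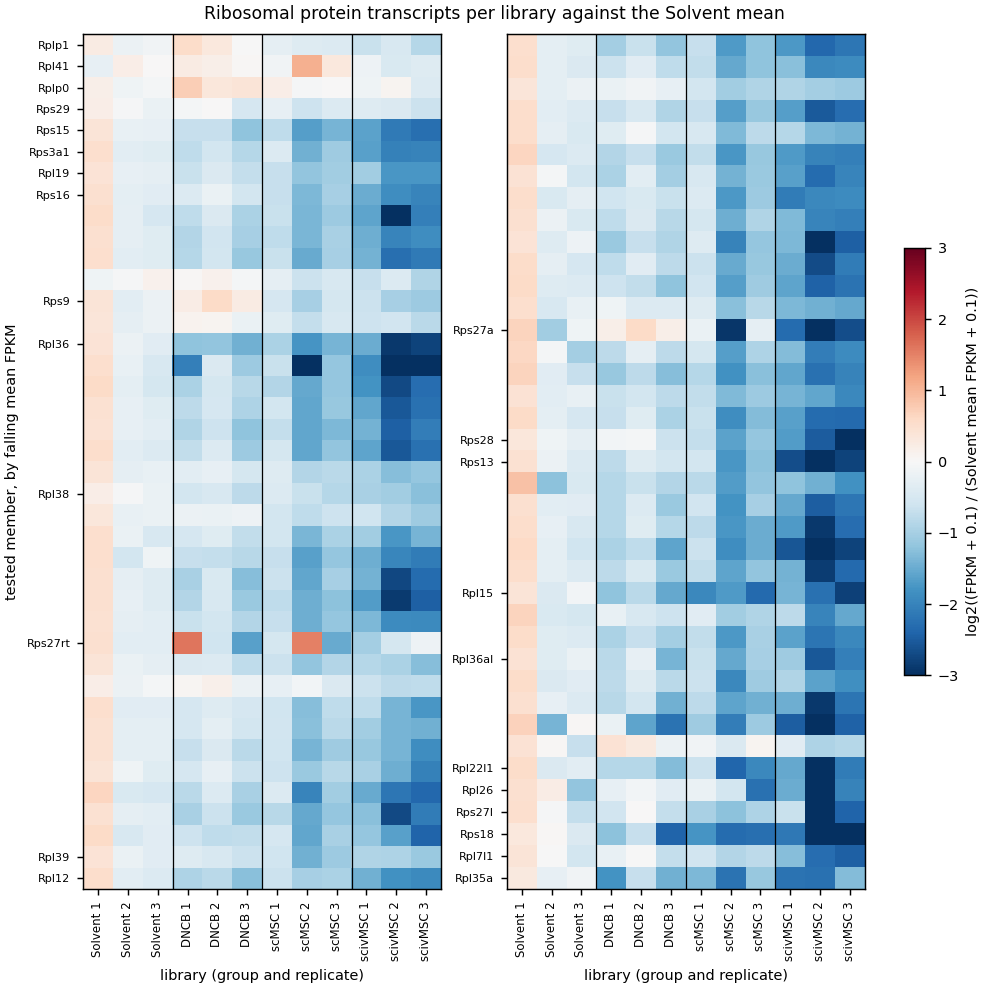
The heat map gives 1 row to each of the 79 tested ribosomal protein genes and 1 column to each library, coloured by the log2 ratio of its FPKM to the Solvent mean after adding 0.1 to both, with names beside the genes picked by the naming rule, the colour scale ending at 3 in both directions and black lines between the groups. A reader should see the column of Solvent replicate 1 above its group and the scivMSC columns lowest, with the lowest FPKM of 42 genes in scivMSC replicate 2 and of 32 in scivMSC replicate 3.

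Summed over all 86 genes, ribosomal protein FPKM was 5891, 3903 and 3769 in Solvent, 3805, 3905 and 3093 in DNCB, 3252, 2616 and 2697 in scMSC, and 2236, 1841 and 1693 in scivMSC. The scivMSC sums lay below all others, and the group means ran in the order Solvent (4521 ± 1188, SD, n = 3), DNCB (3601 ± 443), scMSC (2855 ± 346) and scivMSC (1923 ± 281). Solvent overlapped DNCB, and DNCB overlapped scMSC. Gene by gene, 67 of the 79 tested genes (84.8%) had their group means in this order, against 27.3% of all 5527 tested genes. The highest group mean was in Solvent for 69 genes, in DNCB for 9 and in scMSC for 1, and the lowest was in scivMSC for 78.

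Because haemoglobin fills most of each library, the same sums were also expressed as a share of the FPKM outside haemoglobin. The share was 7.05%, 6.27% and 5.64% in Solvent, 4.84%, 4.19% and 4.07% in DNCB, 4.67%, 4.22% and 4.00% in scMSC, and 3.28%, 3.57% and 3.02% in scivMSC. On this scale Solvent stood above and scivMSC below the remaining libraries, while DNCB (4.36% ± 0.413, SD, n = 3) and scMSC (4.30% ± 0.343) differed by less than their spread. Ribosomal protein FPKM per FPKM of the T and B cell markers was lowest in Solvent, at 18.1 to 25.5. It was 42.2 to 62.1 in DNCB, 29.6 to 40.2 in scMSC and 52.1 to 102 in scivMSC. The lymphocyte markers were, like the family, highest in Solvent and lowest in scivMSC, over a wider range, and their part in the result was not tested.

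**Figure D2:**
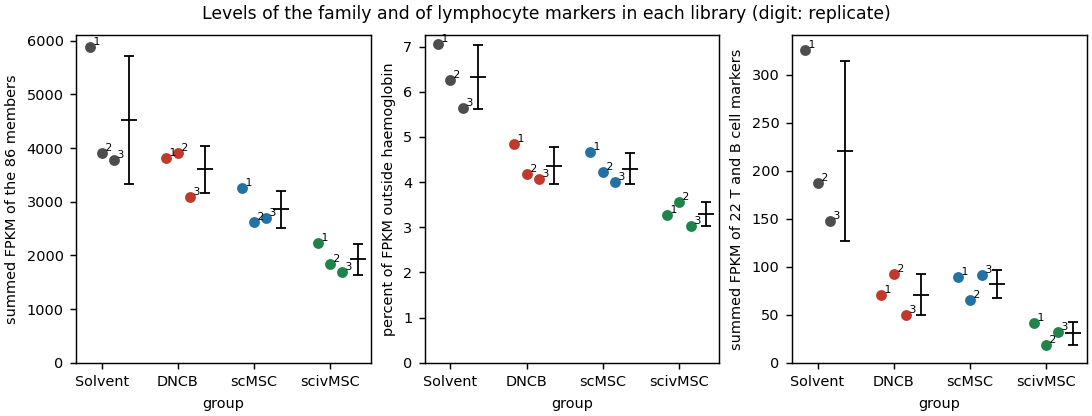
Each point is a library with its replicate number and each bar a group mean with its SD (n = 3), for the summed FPKM of the 86 ribosomal protein genes, their percent of the FPKM outside haemoglobin, and the summed FPKM of the 22 T and B cell markers. A reader should see the mean of Solvent highest and that of scivMSC lowest in all 3 panels, and DNCB and scMSC overlapping in the middle panel, with means of 4.36% and 4.30%.

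The comparison of DNCB with Solvent asks how the family differed in the blood of mice with the induced disease. Ribosomal protein genes were mostly lower in DNCB mice: 69 of 79 had a log2 fold change below 0, with a median of -0.67, whereas the median over all 5527 tested genes was 0.06. A gene was called when its adjusted p (edgeR's quasi-likelihood test with Benjamini-Hochberg adjustment) was under 0.05 and its fold change over 2. By this rule 3 of the 79 fell and 0 rose, against 4.87% of all tested genes called lower and 15.6% called higher. At an unadjusted p under 0.05, 29 were lower and 1 higher, against 10.9% and 22.2% of all tested genes. The 3 were large subunit genes: Rpl36 (log2 fold change -1.28 ± 0.38, SE, adjusted p = 0.024), Rpl15 (-1.16 ± 0.38, adjusted p = 0.036) and Rpl27a (-1.06 ± 0.36, adjusted p = 0.048).

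Rpl36 had 142, 95.0 and 84.9 FPKM in Solvent and 46.4, 46.9 and 39.1 in DNCB, with no overlap. Rpl15, an early-assembling protein of the 60S core, had 20.5, 11.6 and 14.8 against 6.69, 8.92 and 5.35, and Rpl27a had 39.4, 19.6 and 15.2 against 11.2, 14.4 and 10.1. All 3 genes were thus lower in every DNCB library than in every Solvent library. By the adjusted p alone, without the fold limit, Rpl12, Rpl5 and Rpl4 also fell, with log2 fold changes of -0.99, -0.95 and -0.80, for 6 genes in all against 5.03% of all tested genes. Groups without overlap were seen for 38 of the 79 genes on the lower side, against 16.5% of all tested genes, and for 1 gene (Rplp0) on the higher side, against 25.0%.

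Scaling moved the number of calls but not the direction of the median in this comparison. With TMM scaling, which sets the bulk of genes equal between libraries, the family's median was -0.78, that of all genes -0.09, and 13 genes were called lower (11.5% of all tested genes). By the adjusted p alone, 50 of the 79 were lower with TMM, against 19.5% of all tested genes. With haemoglobin left out of the library totals the median was -0.81 and 15 genes were called lower (10.6% of all). The family's median lay below the all-gene median by 0.73, 0.70 and 0.71 log2 units on the 3 scales.

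The calls on the total-count scale rested on Solvent replicate 1 and DNCB replicate 3. Without Solvent replicate 1 the median was -0.31 and 0 genes were called, with 3 lower and 3 higher at an unadjusted p under 0.05 (4.66% and 29.3% of all tested genes). Without DNCB replicate 3 the count was also 0, with 7 lower at an unadjusted p under 0.05 (6.52% of all tested genes). With TMM scaling and Solvent replicate 1 left out together, a setting added after the data were seen, the median was -0.69, 4 genes were called lower (8.63% of all tested genes) and 39 of 78 were lower by the adjusted p alone (14.1% of all tested genes). The call of Rpl36 was lost when Solvent replicate 1 or any single DNCB replicate was left out. In the other direction, Rplp0 had a log2 fold change of 0.50 ± 0.20 (adjusted p = 0.082 in edgeR's test), Rps9 0.35 ± 0.25 (adjusted p = 0.35) and Rplp1 0.31 (adjusted p = 0.33), none of which passed. The other abundant genes did not pass either, from -0.84 for Rps15 (adjusted p = 0.055) and -0.72 for Rps3a1 (0.11) to -0.17 for Rps29 and 0.15 for Rpl41, the last of which was -0.06 with TMM.

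The comparison of scMSC with DNCB asks what the cells given under the skin changed in diseased mice. Here 1 of 79 ribosomal protein genes was called, Rps9, which fell, against 24.9% of all tested genes called lower and 1.27% called higher. The family's median log2 fold change was -0.38 and that of all tested genes -0.63 on total counts, and with TMM scaling they were 0.30 and 0.06. With haemoglobin left out of the totals they were -0.001 and -0.25. The sign of the family's median thus depended on the scaling. With TMM 1 gene was called, Rpl41, which was higher (1.09, adjusted p = 0.045 in edgeR's test; 8.74% of all tested genes). On the 3 scales the family lay above the all-gene median, by 0.26, 0.24 and 0.25 log2 units. Both MSC comparisons use the same 3 DNCB libraries.

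Rps9, a protein at the mRNA entry of the 40S subunit, had 77.3, 98.7 and 79.1 FPKM in DNCB and 47.3, 33.3 and 46.6 in scMSC, with no overlap. This difference measured -1.02 ± 0.25 on the log2 scale (SE, adjusted p = 0.007, edgeR). The call was lost with TMM scaling (-0.34, adjusted p = 0.24) and without DNCB replicate 2 or scMSC replicate 2, and with haemoglobin left out the change was -0.64 (adjusted p = 0.0063), under the fold limit. Rplp1 fell by the adjusted p alone (-0.67, adjusted p = 0.026). Groups without overlap were seen on the lower side for 14 of the 79 genes, against 49.8% of all tested genes, and these included Rps27a, Rps9, Rps28, Rpl15 and the stalk genes Rplp0, Rplp1 and Rplp2.

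The other genes named for this comparison did not pass, including 2 whose groups did not overlap, Rps27a and Rps28. Rps27a had a log2 fold change of -1.05 ± 0.60 (adjusted p = 0.21), with scMSC libraries at 16.2, 2.39 and 15.5 FPKM against 21.1, 27.7 and 21.0 in DNCB. Rps28 (-0.90, adjusted p = 0.082) and Rps18 (-0.88, adjusted p = 0.22) did not pass, nor did Rpl41 (0.35, adjusted p = 0.32), Rpl12 (0.12, adjusted p = 0.78) and Rpl38 (-0.04, adjusted p = 0.91; 0.65 with TMM).

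The comparison of scivMSC with DNCB asks the same of the cells given by both routes, and here the change was family-wide on total counts. On that scale 44 of the 79 genes fell and 0 rose, with a median log2 fold change of -1.07. The wider background fell further: 62.0% of all tested genes were called lower and 1.43% higher, with a median of -1.53, so the share of ribosomal protein genes called was below that of all genes. Every scivMSC library lay below every DNCB library for 71 of the 79 genes (67.9% of all tested genes), the exceptions being Rps18, Rps27, Rps27l, Rpl36al, Rps27rt, Rpl15, Rpl35a and Rps29. All 3 scivMSC libraries lay below the other 9 libraries for 23 of the 79 genes (37.8% of all tested genes). By the adjusted p alone 68 of 79 fell, against 65.0%, so whether the family's share was above or below the background depended on the fold limit.

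With TMM scaling the direction of the family turned. Its median became 0.54 against 0.04 for all genes, and 39 genes were higher and 2 lower by the adjusted p alone, against 27.2% and 27.0% of all tested genes. With the fold limit, 8 were called higher (20.6% of all tested genes) and 1 lower (18.9%). Rps29 (1.39), Rpl39 (1.23), Rpl38 (1.22), Rpl13 (1.21), Rpl41 (1.18), Rplp0 (1.08) and Rplp2 (1.05) were among those higher, and Rps27a (-1.77) was lower. With haemoglobin left out, 7 genes were called lower (46.5% of all tested genes) at a median of -0.51 against -0.99. The family was thus lower as a share of the whole library and higher under TMM, while it lay above the all-gene median by 0.46, 0.50 and 0.48 log2 units on the 3 scales.

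**Figure D3:**
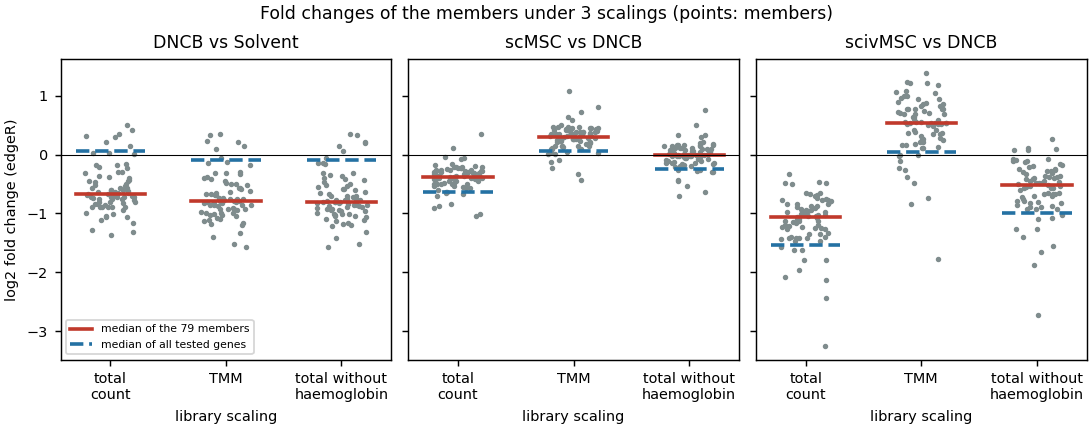
Each grey point is 1 of the 79 ribosomal protein genes, placed by its log2 fold change under total-count scaling, TMM scaling and total counts without haemoglobin, for DNCB against Solvent, scMSC against DNCB and scivMSC against DNCB, and the red and dashed blue lines mark the medians of the family and of all tested genes. A reader should see the family's median change sign with TMM in both MSC comparisons (-0.38 to 0.30 and -1.07 to 0.54) but not in the first (-0.67 to -0.78).

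At the low end stood 4 genes, of which Rps27a, a fusion of ubiquitin with a 40S protein, had 21.1, 27.7 and 21.0 FPKM in DNCB and 3.68, 0.784 and 2.87 in scivMSC. Its log2 fold change of -3.25 ± 0.65 (SE, adjusted p = 0.00044 in edgeR's test) stayed called under all 23 alternatives, between -3.70 and -1.77. Rps13, a protein of the 40S body, had 10.6, 14.0 and 12.7 FPKM in DNCB against 2.85, 1.45 and 2.59 in scivMSC, a log2 fold change of -2.43 ± 0.38 (adjusted p = 5.2e-05) that was -0.85 with TMM. Rps28, on the path by which mRNA leaves the 40S subunit, had 17.9, 18.3 and 12.0 against 5.89, 3.28 and 2.15 (-2.08 ± 0.39, adjusted p = 0.00023; -0.48 with TMM, adjusted p = 0.12). All 3 small subunit genes had groups that did not overlap. Rpl26, at the nascent peptide exit, had -2.13 ± 0.75 (adjusted p = 0.019) at levels between 0.0467 and 2.84 FPKM in these libraries, where few fragments stood behind each value.

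At the high end were Rps29 (-0.33, adjusted p = 0.21), Rpl39 (-0.47, adjusted p = 0.16), Rpl41 (-0.48, adjusted p = 0.095) and Rpl38 (-0.49, adjusted p = 0.12), which did not pass on total counts and were called higher with TMM. With haemoglobin left out of the totals they were at 0.26, 0.11, 0.08 and 0.10. These are short proteins. Rpl39 lines the exit tunnel.

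Against Solvent, whose libraries are also those of the first comparison, scMSC had 1 gene called lower (Rpl15, -2.00 ± 0.39, adjusted p = 0.029 in edgeR's test; 0.326% of all tested genes) and scivMSC had 67 called lower (59.2%). The family's medians were -1.03 and -1.88, below the all-gene medians of -0.59 and -1.47, and they stayed below 0 with TMM (-0.48 and -0.36). Few genes of any kind were called between scMSC and Solvent: the groups did not overlap for 64 of the 79 ribosomal protein genes on the lower side (40.6% of all tested genes), those of scivMSC and Solvent for 73 (62.6%), and a fit of scMSC and Solvent alone called 44 lower (18.4% of all tested genes). Without scivMSC replicate 1, 36 were called lower between scMSC and Solvent (8.82%). That library enters this comparison through the shared estimate of spread and the choice of tested genes. With any single Solvent or scMSC replicate left out, 0 were called.

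Between the 2 MSC groups, 11 genes fell in scivMSC relative to scMSC on total counts (30.4% of all tested genes). No gene of the family passed upwards, against 0.344% of all tested genes. Those that fell were led by Rps27a (-2.20 ± 0.63, adjusted p = 0.020 in edgeR's test), Rps13 (-1.89 ± 0.37, adjusted p = 0.0086) and Rpl3 (-1.76 ± 0.43, adjusted p = 0.013), the last a large subunit core protein. The others, which included Rpl7l1, Rps28, Rpsa, Rps4x, Rps6, Rps23 and Rpl13a, lay between -1.29 and -1.02. For 24 of the 79 genes every scivMSC library lay below every scMSC library (46.7% of all tested genes). The number called fell to 2 without scMSC replicate 1 and grew to 38 without scivMSC replicate 1. The shares of all tested genes in these refits are not given here, so neither count is set against the background. The family's median of -0.75 was 0.16 with TMM. Over all 4 groups, the F test passed for 74 of 79 genes (72.3% of all tested genes), the exceptions being Rpl26, Rps27l, Rps29, Rps2 and Rps27rt.

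To see which genes departed from the family, the same counts were tested with the summed count of the 79 genes as library size, so that a shift shared by the family cancels. These values are shares of ribosomal protein counts, and a rise of 1 abundant gene lowers the shares of the others. Relative to the family, Rplp0 and Rplp1 of the stalk were higher in DNCB than in Solvent by the adjusted p alone, while Rplp2 did not pass. Rplp0 had 40.8, 52.1 and 56.6 of every 1000 ribosomal protein counts in Solvent and 104, 73.8 and 96.4 in DNCB (log2 difference 0.88 ± 0.20, SE, adjusted p = 0.0034 in edgeR's test). Rplp1 had 35.5, 42.2 and 45.2 against 76.1, 60.4 and 60.5 (0.68 ± 0.19, adjusted p = 0.010). Rpl12, which anchors the stalk to the ribosome, moved the opposite way, from 22.1, 19.3 and 18.8 to 13.9, 14.1 and 13 (-0.56 ± 0.15, adjusted p = 0.0093).

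Rps9 also took a larger share in DNCB, with 38.2, 44.9 and 45.6 per 1000 against 24.7, 24.2 and 27.4 in Solvent (0.75 ± 0.16, adjusted p = 0.0018). In all, 3 genes (Rplp0, Rps9 and Rplp1) were higher and 5 (Rpl36, Rpl15, Rpl27a, Rpl12 and Rpl5) lower by the adjusted p alone, against 34.4% and 4.83% of all tested genes on this scale, and none passed the fold limit, which 26.9% and 3.55% of all tested genes did. Rpl36 fell by 0.87 log2 units of share (adjusted p = 0.013), from 6.09, 6.46 and 5.98 to 3.48, 3.25 and 3.42 per 1000. In scMSC, Rps9 and Rpl12 were the genes that differed from DNCB: Rps9 was at 25.6, 24.5 and 30.9 per 1000 (-0.67 ± 0.16, adjusted p = 0.0068; 1 of 79 lower, 23.4% of all tested genes) and Rpl12 at 18.5, 19.9 and 18.3 (0.47 ± 0.15, adjusted p = 0.029; 1 of 79 higher, 6.80%). Both genes overlapped the Solvent libraries in scMSC.

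In scivMSC the departures from DNCB were larger. Rps27a went from 8.16, 9.86 and 9.48 per 1000 to 2.35, 0.645 and 2.50 (-2.32 ± 0.58, adjusted p = 0.0042 in edgeR's test), Rps13 from 5.61, 6.80 and 7.80 to 2.49, 1.62 and 3.09 (-1.49 ± 0.26, adjusted p = 0.0004), and Rps28 from 6.02, 5.68 and 4.72 to 3.29, 2.35 and 1.66 (-1.17 ± 0.24, adjusted p = 0.0012). These 3 were the genes past the fold limit (34.0% of all tested genes on this scale). By the adjusted p alone 10 genes were lower, against 40.5%, and 4 were higher, against 14.9%. The other 7 that were lower were Rpl3, Rpl7l1, Rps25, Rps4x, Rpsa, Rps3 and Rps16, so that 8 of the 10 belonged to the small subunit, which had 33 of the 79 tested genes. Copies bear on these values: with each copy summed with its parent, Rps13 was at -0.10 relative to the family (adjusted p = 0.70) and Rps27a at -0.94.

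The 4 that were higher were Rps29, Rpl39, Rpl38 and Rpl13. Rps29 went from 25.8, 24.9 and 22.1 per 1000 in DNCB to 33.6, 41.7 and 38.4 in scivMSC (0.65 ± 0.17, adjusted p = 0.0053 in edgeR's test), above all other libraries. Rplp0 stayed at a high share in all DNCB-treated groups, with 79.1, 91.7 and 84.5 per 1000 in scMSC and 94.5, 140 and 106 in scivMSC. It was called higher in scivMSC than in Solvent (1.19 ± 0.20, adjusted p = 0.00042 in edgeR's test), as 1 of 79, against 20.0% of all tested genes. In that comparison 5 genes of the family were called lower on this scale, Rps18, Rps13, Rpl3, Rps27a and Rps28 (14.0% of all tested genes). Over the 12 libraries the steadiest shares were those of Rpl7, Rpl35, Rpl19, Rps24 and Rpl31, and the least steady those of Rpl26, Rps27a, Rps27, Rps27rt and Rps18. The SD of the log2 share ran from 0.107 for Rpl7 to 1.34 for Rpl26, with a median of 0.333.

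**Figure D4:**
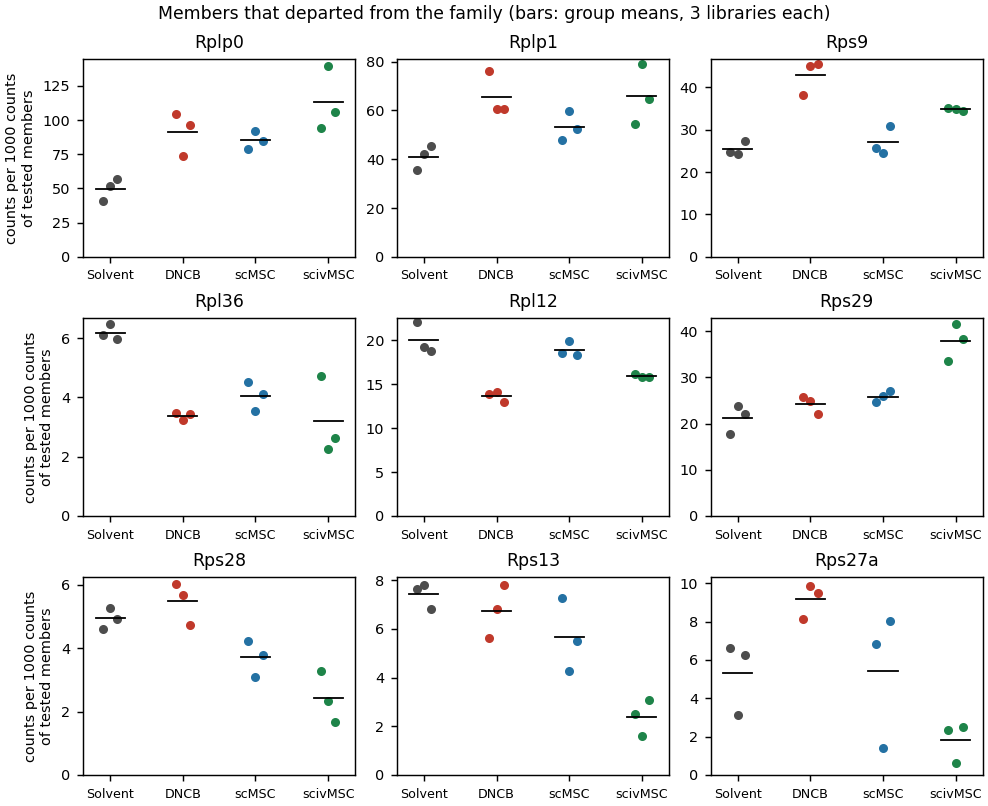
Each panel shows 1 gene as counts per 1000 ribosomal protein counts in the 12 libraries (points) with the group means (bars), for Rplp0, Rplp1, Rps9, Rpl36, Rpl12, Rps29, Rps28, Rps13 and Rps27a. A reader should see Rplp0 and Rplp1 above Solvent in DNCB, Rps9 high in DNCB, and Rps28, Rps13 and Rps27a lowest in scivMSC, where Rps27a held between 0.645 and 2.50 per 1000.

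The ratio of large to small subunit FPKM was 1.33, 1.51 and 1.60 in Solvent, 1.93, 1.67 and 1.89 in DNCB, 1.62, 2.37 and 1.91 in scMSC, and 2.01, 2.48 and 2.10 in scivMSC. Rplp0, Rplp1, Rplp2 and Rpl41 together made up 19.7% to 26.8% of the family's FPKM in Solvent, 33.0% to 39.1% in DNCB, 29.9% to 45.9% in scMSC and 35.7% to 44.9% in scivMSC. Without these 4 genes, a choice made after their values were seen, the ratio lay between 0.785 and 0.935 in all 12 libraries, with group means of 0.874, 0.805, 0.840 and 0.900. It was then still higher in every scivMSC library (0.848 to 0.935) than in every DNCB library (0.785 to 0.845). Solvent (0.853 to 0.902) then overlapped scivMSC and lay above every DNCB library, the reverse of its order with DNCB when the 4 genes were included.

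By subunit, the large subunit genes had median log2 fold changes of -0.65, -0.38 and -0.96 in DNCB against Solvent, scMSC against DNCB and scivMSC against DNCB, with 3, 0 and 19 of 46 called lower. The shares of all tested genes called lower in these comparisons were 4.87%, 24.9% and 62.0%. The small subunit genes had medians of -0.68, -0.38 and -1.25, with 0, 1 and 25 of 33 called lower, beside the same shares. With TMM scaling the medians of scMSC against DNCB were 0.30 and 0.29 and those of scivMSC against DNCB 0.68 and 0.41, above 0. No gene of either subunit was called higher on total counts in these 3 comparisons.

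By role, the stalk genes (Rplp0, Rplp1, Rplp2 and Rpl12) had a median change of 0.16 log2 units in DNCB against Solvent, where the family had -0.67, and -0.49 and -0.70 in scMSC and scivMSC against DNCB. None was called, and with TMM all 4 were higher in scivMSC than in DNCB by the adjusted p alone (27.2% of all tested genes). Rpl5 and Rpl11, which carry 5S rRNA and bind MDM2 when assembly fails, had medians of -0.89, -0.21 and -1.17, and both were called lower in scivMSC against DNCB (62.0% of all tested genes), where their median with TMM was 0.46. Rpl11 had 17.2, 15.9 and 11.4 FPKM in DNCB and 8.78, 4.81 and 5.65 in scivMSC. The 8 genes listed for the exit tunnel had medians of -0.55, -0.39 and -0.92, with 2 called lower in the last comparison (62.0% of all tested genes). With TMM, 6 of the 8 were higher there by the adjusted p alone, against 27.2% of all tested genes.

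The 6 genes of the 40S head and decoding region (Rps3, Rps2, Rps15, Rps23, Rpsa and Rps12) had medians of -0.70, -0.35 and -1.23, with 4 called lower in scivMSC (62.0% of all tested genes) and a median of 0.39 there with TMM. Rps6, the substrate of the S6 kinases, had 112, 62.9 and 58.9 FPKM in Solvent, 46.5, 58.5 and 36.4 in DNCB, 54.3, 26.6 and 34.5 in scMSC, and 25.9, 13.2 and 16.6 in scivMSC. Rps6 fell in scivMSC against DNCB (-1.35, adjusted p = 0.0031 in edgeR's test; 0.26 with TMM), against Solvent (-2.07, adjusted p = 0.00027; -0.59 with TMM) and against scMSC (-1.04, adjusted p = 0.034; -0.11 with TMM), and did not pass in DNCB against Solvent, scMSC against DNCB or scMSC against Solvent. Of the 21 genes known from Diamond-Blackfan anaemia, 1, 0 and 15 were called lower (4.87%, 24.9% and 62.0% of all tested genes), with medians of -0.72, -0.38 and -1.12. With TMM, 10 of these 21 were higher in scivMSC than in DNCB by the adjusted p alone, against 27.2% of all tested genes. Rps19, the most often mutated of them, had 9.81, 13.5 and 8.19 FPKM in DNCB and 6.11, 3.13 and 3.92 in scivMSC, where the groups did not overlap.

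Paralogs of family genes were expressed below or near their parents. Rpl22l1 had group means of 5.12, 2.53, 1.80 and 1.06 FPKM in Solvent, DNCB, scMSC and scivMSC, beside 9.96, 5.33, 4.17 and 2.31 for Rpl22. Rpl7l1, a nucleolar relative of Rpl7, had 2.17, 1.76, 1.25 and 0.508 beside 43.2, 31.7, 23.9 and 17.7, and Rps27l had 3.11, 2.35, 1.47 and 0.886. Rpl36al, whose protein is nearly identical to that of Rpl36a, had 10.6, 6.29, 5.20 and 3.09 beside 10.6, 7.84, 6.36 and 4.11. These paralogs followed the order of the family. Rpl3l, a muscle form, was listed at 0 in 8 of the 12 libraries and Rpl39l, a testis form, in 9.

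Reads of this family can match its many retrocopies, and near-identical copies make some of the values uncertain. The table held 207 rows named as copies of 58 of the 86 genes, and 79 of those rows passed the same filter. In each library the copies took between 12.5% and 14.6% of the counts of genes and copies together. For 8 genes the copies held over 50% of the counts: Rpl21 (98.8%), Rps2 (95.4%), Rpl35a (92.8%), Rps18 (92.3%), Rpl17 (84.4%), Rpl7a (72.9%), Rps12 (53.1%) and Rpl3 (52.1%). The level of these 8 genes is therefore uncertain. The copy with the highest mean was Rps12-ps3 at 149 FPKM.

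In a few cases a gene and its copy ran opposite to each other. Rps27 had 25.9, 79.3 and 50.1 FPKM in DNCB and 67.7, 5.08 and 47.5 in scMSC, and Rps27rt, its retrogene, had 96.5, 21.0 and 10.3 and then 21.9, 90.1 and 11.1, so that the libraries lowest in Rps27 in these 2 groups were the highest in Rps27rt. No fold change is given for Rps27rt. Rps13-ps2 was listed at 3.61, 2.95 and 3.06 FPKM in DNCB and 18.1, 10.3 and 11.5 in scivMSC, the reverse of Rps13. With every copy summed with its parent, a setting added after the data were seen, Rps13 still fell in scivMSC against DNCB, by 1.01 on the log2 scale (adjusted p = 0.015 in edgeR's test), and Rps27a had -1.86 (adjusted p = 0.00037). Relative to the family, 1 gene in place of 3 then passed the fold limit there. Over the family, 46 of 81 genes were called lower in that comparison with copies summed, and 2 in DNCB against Solvent, with medians of -1.03 and -0.65. The shares of all tested genes with copies summed are not given here. Rpl35a, at -1.37 (adjusted p = 0.070) in DNCB against Solvent, and Rps18, at -1.31 (adjusted p = 0.085), moved to -0.31 and -0.81.

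**Figure D5:**
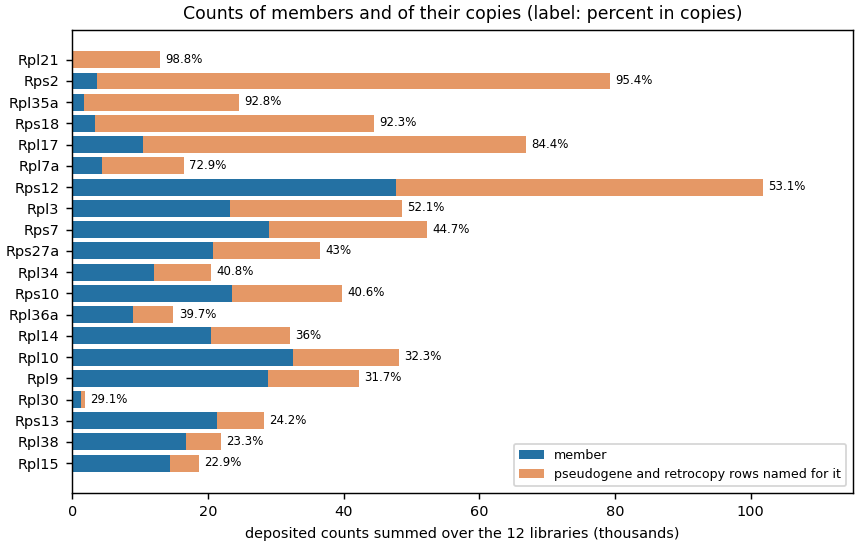
Stacked bars give, for the 20 ribosomal protein genes with over 20% of their counts in copies, the counts over the 12 libraries, in units of 1000, assigned to the gene and to its named copies, with the copies' percent beside each bar. A reader should see that the copies hold nearly all counts of Rpl21 (98.8%) and Rps2 (95.4%).

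The deposited coordinates place Rplp0 (ENSMUSG00000067274) on chromosome 5, 115559467 to 115563727, plus strand, Rps9 (ENSMUSG00000006333) on chromosome 7, 3703993 to 3706897, plus strand, and Rps13 (ENSMUSG00000090862) on chromosome 7, 116331505 to 116334195, minus strand. Rps27a (ENSMUSG00000020460) lies on chromosome 11, 29545846 to 29548109, minus strand, Rps28 (ENSMUSG00000067288) on chromosome 17, 33819027 to 33824562, minus strand, and Rpl36 (ENSMUSG00000057863) on chromosome 17, 56613416 to 56614243, plus strand. These are the bounds of whole genes, exons and introns together. All 86 genes overlapped the RefSeq gene of the same symbol in GRCm38, 73 of them with an end within 10 bases, although the submitters' processing notes name mm8.

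Of the ribosomal proteins that the naming rule misses, Fau and Rack1 were measured beside the family. Fau, a ubiquitin-like fusion with a 40S protein, had log2 fold changes of 0.11, -0.96 (adjusted p = 0.043 in edgeR's test) and -1.90 in DNCB against Solvent, scMSC against DNCB and scivMSC against DNCB, and Rack1, a scaffold on the 40S head, had -0.68, -0.44 and -1.16. Both were called lower in scivMSC against DNCB, where with TMM Fau was at -0.31 and Rack1 at 0.46, neither past the test.

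A list of translation factors and other genes whose transcripts also carry a 5′ terminal oligopyrimidine tract was measured in the same way. Over 15 tested genes of this list the medians were -0.69, -0.30 and -1.07 in DNCB against Solvent, scMSC against DNCB and scivMSC against DNCB, with 1, 0 and 9 called lower, against 4.87%, 24.9% and 62.0% of all tested genes. With TMM the last median was 0.55. Eef1a1, the main elongation factor, averaged 288.5 ± 120 FPKM in Solvent, 162 ± 37.1 in DNCB, 133 ± 28.6 in scMSC and 71.1 ± 27.4 in scivMSC (SD, n = 3). Tpt1 did not follow, with group means of 494, 502, 450 and 495 FPKM, and Pabpc1, the poly(A)-binding protein, rose in scivMSC against DNCB by the adjusted p alone (0.46, adjusted p = 0.029 in edgeR's test) after a fall in DNCB against Solvent (-0.78, adjusted p = 0.004). Hnrnpa1 was the list's call in DNCB against Solvent (-1.35, adjusted p = 0.031).

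Of 20 ribosome assembly genes 10 were tested, and their medians were -0.94, -0.26 and -1.49, with 0, 0 and 9 called lower. For this list and the next 3, the shares of all tested genes called lower in the same comparisons were 4.87%, 24.9% and 62.0%, and 15.6% were called higher in the first. Of 8 ribosome rescue and recycling genes 4 were tested, with medians of -0.55, -0.38 and -1.53 and 1, 0 and 3 called lower. Of 11 genes of the kinase route to these messages 7 were tested, with medians of 0.39, -0.46 and -1.60. In that list Eif4ebp1, the repressor of cap-dependent translation that mTOR inactivates, rose in DNCB against Solvent (1.78 ± 0.32, SE, adjusted p = 0.001 in edgeR's test), 3 genes fell in scMSC and 6 in scivMSC. The mitochondrial ribosomal protein genes, which build a separate ribosome, had 29 of 78 members tested and medians of -0.10, -0.78 and -1.42, with 1 called higher in the first, 2 lower in the second and 14 lower in the last. Their median of -0.10 in DNCB against Solvent lay beside -0.67 for the cytosolic family and 0.06 for all tested genes. With TMM the medians of scivMSC against DNCB were -0.02 for assembly, 0.08 for rescue and recycling, 0.05 for the kinase route and 0.13 for the mitochondrial genes, so the direction in that comparison again depended on the scaling.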

How the data were processed

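Blood RNA was measured by bulk RNA sequencing in 12 libraries. The authors deposited, for each gene and library, an estimated count and an FPKM value scaled to the library total, haemoglobin included. The counts cluster on multiples of 4 (29.0% of cells from 1 to 12 hold 4 and 16.0% hold 8), so they were treated as estimated counts and rounded, and the number of fragments behind a count is uncertain. The submitters' processing notes list HISAT2 2.0, StringTie 1.3.0, Bowtie 0.12.2 and mm8 without roles. Whether reads were assigned by strand, and how reads shared by copies were placed, is not given in the sources used here.

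The 5527 genes that reached an FPKM of 1 in 3 or more libraries were tested with edgeR 4.0.16 in R 4.3.3 (glmQLFit and glmQLFTest, two-sided) on the deposited counts, with the total count as library size, in 1 fit of 12 libraries and 4 group means. P-values were adjusted by Benjamini-Hochberg over all tested genes, and a call needed an adjusted p under 0.05 and a fold change over 2. The same model was fitted with the summed count of the 79 tested family genes as library size. Percentages given as a share of all tested genes count every gene called by the same rule. Alternatives were TMM scaling, totals without haemoglobin, DESeq2 1.42.0, limma 3.58.1 on log2(FPKM + 1) and log2(FPKM + 0.1), other filters, counts divided by 4, the 2 groups alone, a replicate block and leaving out each library. Summing copies with their parent, and TMM with Solvent replicate 1 left out, were added after the data were seen. Tables were built with Python 3.11.15, and the tests were tried on simulated counts.

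The family, the lists and the rules were chosen with earlier results of these data known. Genes were named by rule: the 8 most abundant, the 4 highest and 4 lowest of each of 3 comparisons, the 3 highest and 3 lowest relative to the family, paralogs, role lists and called genes. Genes named for running opposite to a copy were chosen after their values were seen. Values of some genes are not reported here.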

Additional observations from a re-analysis of the deposited data

How the results depend on the processing

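The direction of the family in the comparisons with DNCB depended on scaling. The median log2 fold change turned to 0.30 with TMM and 0.26 with DESeq2 in scMSC against DNCB. In scivMSC against DNCB it turned to 0.54 and 0.53 (-0.51 with haemoglobin left out), to 0.16 and 0.19 in scivMSC against scMSC. Against Solvent it kept its sign, at -0.48 with both tools in scMSC and -0.36 and -0.32 in scivMSC. The genes called in DNCB against Solvent (3) were 13 with TMM, 15 with haemoglobin left out, 10 with DESeq2, 1 with no filter, 9 from the 2 groups alone and 6 by the adjusted p alone. For scMSC against DNCB (1) they were 0 with haemoglobin left out and with limma on log2(FPKM + 1), and 2 from the 2 groups alone and by the adjusted p alone; with TMM the 1 called gene was Rpl41, higher. For scivMSC against DNCB (44) they were 9 with TMM, 7 with haemoglobin left out, 9 with DESeq2 and 68 by the adjusted p alone. For scMSC against Solvent (1) they were 2 with TMM, 8 with haemoglobin left out, 4 with DESeq2, 24 and 3 with limma at pseudocounts of 1 and 0.1, 2 with no filter, 8 at a mean FPKM of at least 5, 3 with counts divided by 4, 44 from the 2 groups alone and 0 with copies summed. For scivMSC against Solvent (67) they were 7 with TMM and 9 with DESeq2. For scivMSC against scMSC (11) they were 1 with TMM, 5 with haemoglobin left out, 3 with DESeq2, 6 at a mean FPKM of at least 5, 0 from the 2 groups alone and 23 by the adjusted p alone. Apart from the scaling itself, the cause of these changes was not tested. Where no share of all tested genes is given for a setting, its count is not set against the background.

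Relative to the family, TMM over its genes called 1 in place of 0 in DNCB against Solvent and 10 in place of 6 in scivMSC against Solvent. Copies summed with their parent gave 1 in place of 3 in scivMSC against DNCB, 1 in place of 3 for scMSC against Solvent and 0 in place of 2 in scivMSC against scMSC. Single genes that changed sign were Rpl41 in DNCB against Solvent (-0.062 with TMM, -0.052 with haemoglobin left out, -0.020 with DESeq2), Rps27a there with copies summed (-0.14), Rpl35a there relative to the family with copies summed (0.16), Rpl38 in scMSC against DNCB (0.65, 0.34 and 0.60 in the same order of settings), and in scivMSC against DNCB Rpl38 (1.22, 0.096 and 1.21), Rpl41 (1.18, 0.084 and 1.17), Rpl39 (1.23, 0.11 and 1.23) and Rps29 (1.39, 0.26 and 1.39).

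Leaving out each library in turn gave between 63 and 76 genes in the F test, 0 and 6 in DNCB against Solvent, 0 and 1 between scMSC and DNCB, 28 and 60 for scivMSC against DNCB, 0 and 40 for scMSC against Solvent, 55 and 69 for scivMSC against Solvent, and 2 and 38 in scivMSC against scMSC. The libraries that gave these ends were Solvent replicate 1 and DNCB replicate 3 (0 in DNCB against Solvent), scivMSC replicate 2 (6), DNCB replicate 2 (28) and scivMSC replicate 1 (60), and scivMSC replicate 2 also gave the 40 in scMSC against Solvent. The medians ran from -0.83 to -0.31, -0.60 to -0.21, -1.35 to -0.95, -1.27 to -0.69, -2.05 to -1.47 and -1.01 to -0.53 in the same order of comparisons. Relative to the family the counts ran from 0 to 2, 0 to 1, 3 to 7, 0 to 3, 4 to 16 and 1 to 3. These ranges describe how far the counts moved and are not set against the shares of all tested genes. Rps27a in DNCB against Solvent ran from -0.017 to 0.83, and in scMSC against DNCB Rpl38 ran from -0.17 to 0.059, Rpl12 from -0.0030 to 0.22 and Rpl41 from -0.041 to 0.58.

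The labels do not say whether the replicate numbers pair the samples, and the values did not settle it. Of 18 pairs with the same number, 3 had deviations that correlated above 0.1 (range -0.29 to 0.16). Of 12 libraries, 7 correlated best with their own number. With 3 libraries in each group, such a check could miss a pairing. With a replicate block 2 genes were called in scMSC against DNCB, 3 in DNCB against Solvent and 50 in scivMSC against DNCB.

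There were 3 libraries per group, and total counts were set by haemoglobin. The family's share of the FPKM outside haemoglobin in DNCB and scMSC differed by less than the spread. Genes under a few FPKM, such as Rpl26, rest on few fragments.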
